A study of Mus musculus with 24 samples.

Results

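The genes described here encode the constitutive proteasome, the protease that all cells use to degrade proteins tagged with ubiquitin. Members were the mouse genes whose symbol begins with Psma, Psmb, Psmc, Psmd, Psme, Psmf or Psmg and ends in a number. The interferon-inducible catalytic subunits Psmb8, Psmb9 and Psmb10 were left out. This gave 45 genes of the 46078 in each expression table: 16 of the 20S core, 17 of the 19S regulatory particle, 5 activators and inhibitors and 7 assembly chaperones. Of these, 43 reached the expression minimum for testing (0.5 RPKM or more, reads scaled to gene length and library size, in 4 or more of a table's 8 libraries). Psma8, the testis form of an alpha subunit, was listed at 0 in every library. Psmb11, the catalytic subunit of the thymus, was listed at 0 in vivo and did not exceed 0.0182 RPKM in vitro.

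RNA-seq was done in 2 settings of C57BL/6 mice aged 2 to 4 months, with 4 libraries in each of 4 groups. In vitro, primary myoblasts grown from satellite cells of uninjured muscle, all homozygous for the floxed allele in their label (Chd4fl/fl), were kept proliferating and received adenovirus for Cre (AdCRE) or for GFP (AdGFP) for 72 hours. In vivo, satellite cells were sorted from muscle 3 days after cardiotoxin injury, from Chd4dPax7ER mice, whose label names a Pax7 driver, and from Chd4fl/fl mice. The sort kept cells with alpha7-integrin and CD34 on the surface and without SCA1 or CD45. Cre was in the AdCRE virus alone, so what Cre itself does and what losing Chd4 does cannot be told apart in culture. The Cre status and treatment of Chd4fl/fl mice were not stated in the labels. The labels do not say whether replicates were separate mice or dishes, so p-values reflect the spread between these libraries, which may be technical. In bulk samples, fewer cells of a type and less RNA per cell cannot be told apart.

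The 20S core is a barrel of stacked alpha and beta rings. The alpha rings gate the entrance, and the beta rings hold the proteolytic sites of Psmb5 (chymotrypsin-like), Psmb6 (caspase-like) and Psmb7 (trypsin-like). The 19S particle caps the barrel. Its ring of ATPases (Psmc genes) unfolds substrates, and its non-ATPase subunits (Psmd genes) bind ubiquitin chains and, through Psmd14, remove them. The PA28 and PA200 activators (Psme genes) open the barrel without ubiquitin, Psmf1 encodes the inhibitor PI31, and dedicated chaperones (Psmg genes, Psmd5, Psmd9 and Psmd10) assemble the parts. In skeletal muscle the system is known for degrading muscle protein in atrophy.

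The transcript of Chd4, the ATPase of the NuRD chromatin remodelling complex, was lower in all 4 AdCRE libraries (20.8 ± 3.49 RPKM, SD) than in AdGFP (75.1 ± 7.75), and in all 4 Chd4dPax7ER libraries (56.7 ± 8.37) than in Chd4fl/fl (126 ± 6.77). Satellite cell markers were present in all 4 groups, and their 8 genes summed to between 533 and 1328 RPKM per library. Summed RPKM lay between 286802 and 326812 per library, and mitochondrial transcripts took 2.90 to 12.5% of it. Reads per library are not known. Steps between low values gave relative depths of 1 to 1.64 times in vitro, with AdGFP replicate 4 deepest.

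The 31 tested core and 19S genes stood at 24.2 RPKM or more in both control groups, and levels differed widely between subunits that the particle holds in equal number. In AdGFP cultures, alpha genes ranged from 27.7 RPKM (Psma3) to 194 (Psma2), beta genes from 29.9 (Psmb3) to 190 (Psmb1; 189.6), ATPases from 41.0 (Psmc2) to 156 (Psmc6) and 19S non-ATPases from 24.2 (Psmd11) to 185 (Psmd8). Activators and the inhibitor were lower, from 6.03 (Psmf1, the inhibitor) to 58.1 (Psme3), as were chaperones, from 4.61 (Psmg3) to 32.3 (Psmg2). Chd4fl/fl sorted cells gave ranges of 49.6 (Psma4) to 169 (Psma2), 31.0 (Psmb3 and Psmb5) to 191 (Psmb7), 35.5 (Psmc2) to 172 (Psmc6) and 25.8 (Psmd3) to 167 (Psmd8) for the same classes. There activators and the inhibitor ran from 2.44 (Psmf1) to 73.2 (Psme3) and chaperones from 0.825 (Psmg3) to 33.1 (Psmg2). Levels were not compared across the tables, which were normalised separately. RPKM levels of different genes also rest on the gene lengths used, which the labels do not state.

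The catalytic genes kept 1 order in both control groups, with no overlap between libraries of neighbouring genes. AdGFP cultures held 53.4 ± 5.59 RPKM of Psmb5, 87.2 ± 7.48 of Psmb6 and 126 ± 7.52 of Psmb7. Chd4fl/fl cells held 31.0 ± 1.69, 60.6 ± 3.76 and 191 ± 7.69 of the same genes. Psmb6 reads are less certain because a near-identical pseudogene, Psmb6-ps2, was listed at 1.45 RPKM in AdGFP and 1.41 in Chd4fl/fl.

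**Figure D1:**
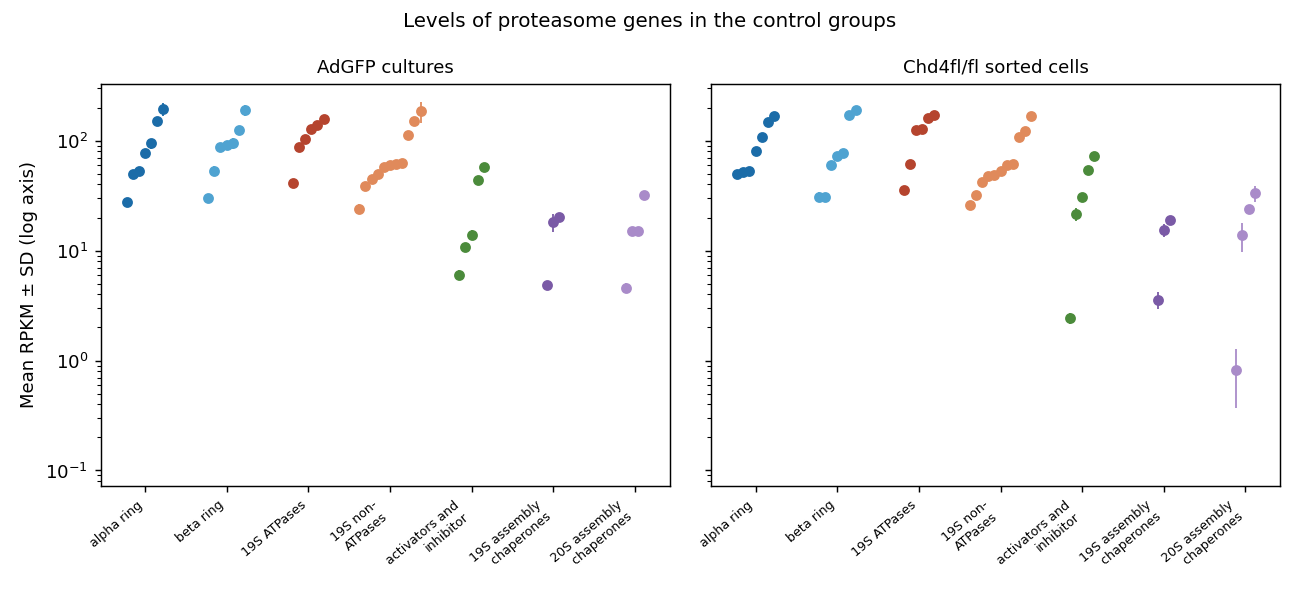
Mean RPKM (log axis, bars: SD of 4 libraries) of each of the 43 tested proteasome genes in the control group of each table, by class. Core and 19S genes lie between 24.2 and 194 RPKM in both panels, while activators and chaperones reach down to 0.825.

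Proteasome promoters were read for known regulatory letters, since the transcription factor NRF1 is known to raise many subunit genes together through antioxidant response elements. The RefSeq promoter table (GRCm38.p6) held 37 of the 45 genes in 40 entries; Psma8, Psmb1, Psmb2, Psmb7, Psmc3, Psmd3, Psmd7 and Psmg2 had no entry. In the 250 bases before each start, on either strand, the response element core TGACNNNGC stood in 5 of 40 entries (12.5%), those of Psmb5, Psmb6, Psmc6, Psmd9 and Psmd12. All 32851 promoters of the table held it in 10.2% and those of genes tested in vivo in 11.7%. The ETS motif CCGGAAG was in 13 of 40 entries (32.5%), against 6.91% of all promoters and 13.5% of those of genes tested in vivo. It was unevenly spread: 9 of 15 entries of 19S genes held it (60.0%) and 1 of 13 core entries (7.69%). CCAAT was in 32.5% of member entries and 33.8% of all, and the GC box GGGCGG in 55.0% and 32.7%, beside 58.3% for genes tested in vivo. Median GC content was 57.6% for members and 60.0% for genes tested in vivo. The 10 entries found for 8 of the members that rose in vivo held no response element core. The ETS motif was in 3 of these 10 entries (30.0%), and Psmc2 held it in each of its entries. Members that did not pass in vivo held it in 9 of 27 entries (33.3%). Matches of different motifs can share bases, as in Psmd9, where the GC box on the other strand overlaps the end of the response element core. Matches are descriptions and not shown binding sites, and the shares were not tested.

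Shown here are the 250 bases before the start, 5′ to 3′ on the coding strand, of a core gene and a chaperone with the response element core, of a pair of ATPase genes with the ETS motif, and of Psmd8, the member that rose most in vivo, with neither. Capitals mark TGACNNNGC in the first pair and the reverse complement of the ETS motif (CTTCCGG) in the second. The entries lie at chr14:54617996-54618245 (Psmb5, minus strand), chr5:123227940-123228189 (Psmd9, plus), chr12:100109952-100110201 (Psmc1, plus), chr5:21785025-21785274 (Psmc2, plus) and chr7:29180674-29180923 (Psmd8, minus). The capitals begin 47 bases before the start in Psmb5, 31 in Psmd9, 28 in Psmc1 and 84 in Psmc2.
Psmb5: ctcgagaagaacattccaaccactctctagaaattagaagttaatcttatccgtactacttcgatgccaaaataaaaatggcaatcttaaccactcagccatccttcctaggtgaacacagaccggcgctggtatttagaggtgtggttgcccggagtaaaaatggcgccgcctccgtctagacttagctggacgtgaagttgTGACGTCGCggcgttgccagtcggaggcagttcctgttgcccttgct
Psmd9: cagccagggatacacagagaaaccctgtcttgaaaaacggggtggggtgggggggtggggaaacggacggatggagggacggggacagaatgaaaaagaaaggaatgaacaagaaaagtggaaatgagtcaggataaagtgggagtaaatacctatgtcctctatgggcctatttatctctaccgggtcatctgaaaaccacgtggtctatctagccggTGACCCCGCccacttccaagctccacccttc
Psmc1: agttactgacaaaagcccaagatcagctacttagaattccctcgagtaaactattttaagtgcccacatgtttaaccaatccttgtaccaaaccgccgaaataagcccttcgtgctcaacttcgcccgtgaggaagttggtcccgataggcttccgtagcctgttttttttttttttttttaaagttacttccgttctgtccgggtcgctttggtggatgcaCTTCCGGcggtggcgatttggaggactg
Psmc2: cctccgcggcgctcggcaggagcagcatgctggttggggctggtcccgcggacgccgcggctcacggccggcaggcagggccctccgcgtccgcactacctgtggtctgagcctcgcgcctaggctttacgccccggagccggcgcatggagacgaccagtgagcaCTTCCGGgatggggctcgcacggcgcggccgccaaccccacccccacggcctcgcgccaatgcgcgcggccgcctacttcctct
Psmd8: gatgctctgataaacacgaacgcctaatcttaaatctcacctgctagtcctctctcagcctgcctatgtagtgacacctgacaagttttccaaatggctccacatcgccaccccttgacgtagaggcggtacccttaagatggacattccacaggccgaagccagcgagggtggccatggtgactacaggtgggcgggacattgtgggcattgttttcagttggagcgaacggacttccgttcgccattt

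The first comparison asked how proteasome transcripts stood in cultured myoblasts after Cre. No proteasome gene passed the test that left out the pairing by replicate number, and the fold changes of core and 19S genes were small. With that number as a block, described below, 3 members were higher and 4 lower. In the limma test of log2(RPKM + 0.5), with p-values adjusted over 13567 genes (Benjamini-Hochberg, threshold 0.05), 0 of 43 proteasome genes passed, where 0.656% of all genes did (0.516% higher, 0.140% lower). Without adjustment, 1 member was higher (Psme4) and 3 were lower (Psma1, Psmc4 and Psmg2) at p under 0.05, and 15.6% of all genes were under it. The log2 fold changes ran from -0.27 to 0.23. Their median was -0.05 over all members, beside -0.01 for all genes tested. It was -0.06 for the core, -0.05 for 19S genes, 0.03 for activators and the inhibitor, and -0.11 for chaperones. The median for activators and the inhibitor fell to 0.01 when values were rescaled to a common sum. Leaving out any 1 library left the count at 0. These small medians depended on single libraries: the core median was -0.12 without AdGFP replicate 4 and -0.0039 without AdCRE replicate 4, and the 19S median turned to 0.0053 without AdCRE replicate 4 and 0.0025 without AdGFP replicate 1.

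Replicate number mattered in the cultures. Of the 31 core and 19S genes, 28 were lowest in AdCRE replicate 4 and 26 in AdGFP replicate 4, while replicate 1 was highest for 20 and 23. The geometric mean of core genes was 84.6, 81.5, 73.9 and 68.8 RPKM in AdCRE replicates 1 to 4 and 86.3, 81.1, 80.9 and 71.9 in AdGFP, and that of 19S genes 81.0, 76.9, 72.3 and 66.5 against 80.9, 75.9, 76.8 and 69.3. Replicates 1 and 4 of a group thus lay further apart than the 2 virus groups did at a given number. Replicate 4 also had the smallest mitochondrial share in each group (3.39% and 2.90%) and relative depths of 1.29 and 1.64; their part in the levels was not tested.

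With the replicate number as a block, the cultures gave 3 higher and 4 lower members of 43, where 17.5% of all genes were higher and 18.7% lower. The share of all genes that moved 1 way in every pair was not taken. Psmg2, which with Psmg1 forms a chaperone of the alpha ring, fell in every pair. It held 27.0, 27.5, 26.0 and 26.5 RPKM in AdCRE replicates 1 to 4 and 31.3, 33.3, 31.2 and 33.4 in AdGFP. The groups did not overlap, as was so for 10.0% of all genes (3.80% with all cases above and 6.21% with all below), and the log2 fold change was -0.27 (SE 0.06; limma adjusted p = 0.0919 without and 0.00261 with the block). Psma1, an alpha subunit, held 69.3, 72.8, 63.8 and 60.5 RPKM after Cre and 80.9, 79.4, 78.1 and 73.9 after GFP. These also did not overlap, at a log2 fold change of -0.23 (SE 0.08; limma adjusted p = 0.212 and 0.00640 with the block). Psmc4, a 19S ATPase, held 77.2, 79.7, 77.5 and 72.3 RPKM against 89.0, 86.7, 92.6 and 81.3, without overlap (log2 fold change -0.19, adjusted p = 0.237 and 0.0106 with the block, limma). Psma4, another alpha subunit, was lower in every pair although the RPKM groups overlapped. It held 46.8, 49.7, 44.0 and 40.8 against 52.2, 52.2, 47.6 and 47.6 (-0.14, limma adjusted p = 0.440 and 0.0339 with the block). After rescaling to a common sum, 7 members lay wholly below control (Psma1, Psma4, Psma6, Psmc4, Psmd7, Psmg2 and Psmg4) and 0 above. Rescaling also moved the median log2 fold change of all genes tested from -0.01 to -0.03. The share of all genes without overlap was not taken on that scale, so the count has nothing to be set against.

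Psme4, which encodes the activator PA200, was the member above control in all libraries. It held 51.4, 49.0, 49.5 and 50.0 RPKM in AdCRE replicates 1 to 4 and 48.2, 44.0, 41.0 and 41.7 in AdGFP, without overlap (log2 fold change 0.19, SE 0.07, limma adjusted p = 0.231, with the block 0.0141), but its groups overlapped after rescaling to a common sum. Psmd10, the 19S chaperone gankyrin, and Psmd8, a non-ATPase of the lid, were higher in every pair although their groups overlapped. Here too the share of all genes higher in every pair was not taken. Psmd10 read 25.6, 20.6, 20.4 and 18.0 against 21.6, 18.4, 18.6 and 13.6 RPKM (log2 fold change 0.23, limma adjusted p = 0.519, with the block 0.0139). Psmd8 read 243, 227, 209 and 151 against 224, 190.3, 198 and 127 (0.18, 0.747 and 0.0262). When any 1 pair was left out of the block fit, Psma1, Psmc4, Psmg2 and Psmd10 still passed. Psma4 lost its call without any of the pairs (largest adjusted p = 0.121), Psmd8 without replicates 1, 2 or 4 (0.101) and Psme4 without replicates 3 or 4 (0.0585).

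The catalytic and the other activator genes passed neither fit in culture. Psmb5 held 54.2, 52.8, 48.5 and 48.4 RPKM in AdCRE and 57.0, 53.4, 57.7 and 45.5 in AdGFP replicates 1 to 4 (log2 fold change -0.06, SE 0.09). Psmb6 read 89.6, 93.3, 80.9 and 74.7 against 93.0, 87.3, 91.8 and 76.6 (-0.04, SE 0.10). Psmb7 was at 128, 137, 123 and 112 against 129, 132, 129 and 115 (-0.02, SE 0.08). The groups overlapped for each, and limma adjusted p-values were 0.809, 0.880 and 0.952. Psme1 and Psme2, the interferon-inducible PA28 alpha and beta subunits, held 11.03, 11.4, 9.97 and 13.1 against 10.6, 10.3, 10.1 and 11.9 RPKM, and 15.3, 15.8, 12.4 and 13.9 against 15.8, 13.2, 12.8 and 14.3. Psme3, the nuclear PA28 gamma, read 52.5, 53.8, 53.6 and 54.7 against 54.7, 54.3, 63.7 and 59.5. Psmf1 was at 6.38, 6.53, 6.14 and 5.15 against 6.55, 6.10, 6.30 and 5.15. All of these overlapped, with log2 fold changes from -0.11 (Psme3) to 0.07 (Psme1).

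**Figure D2:**
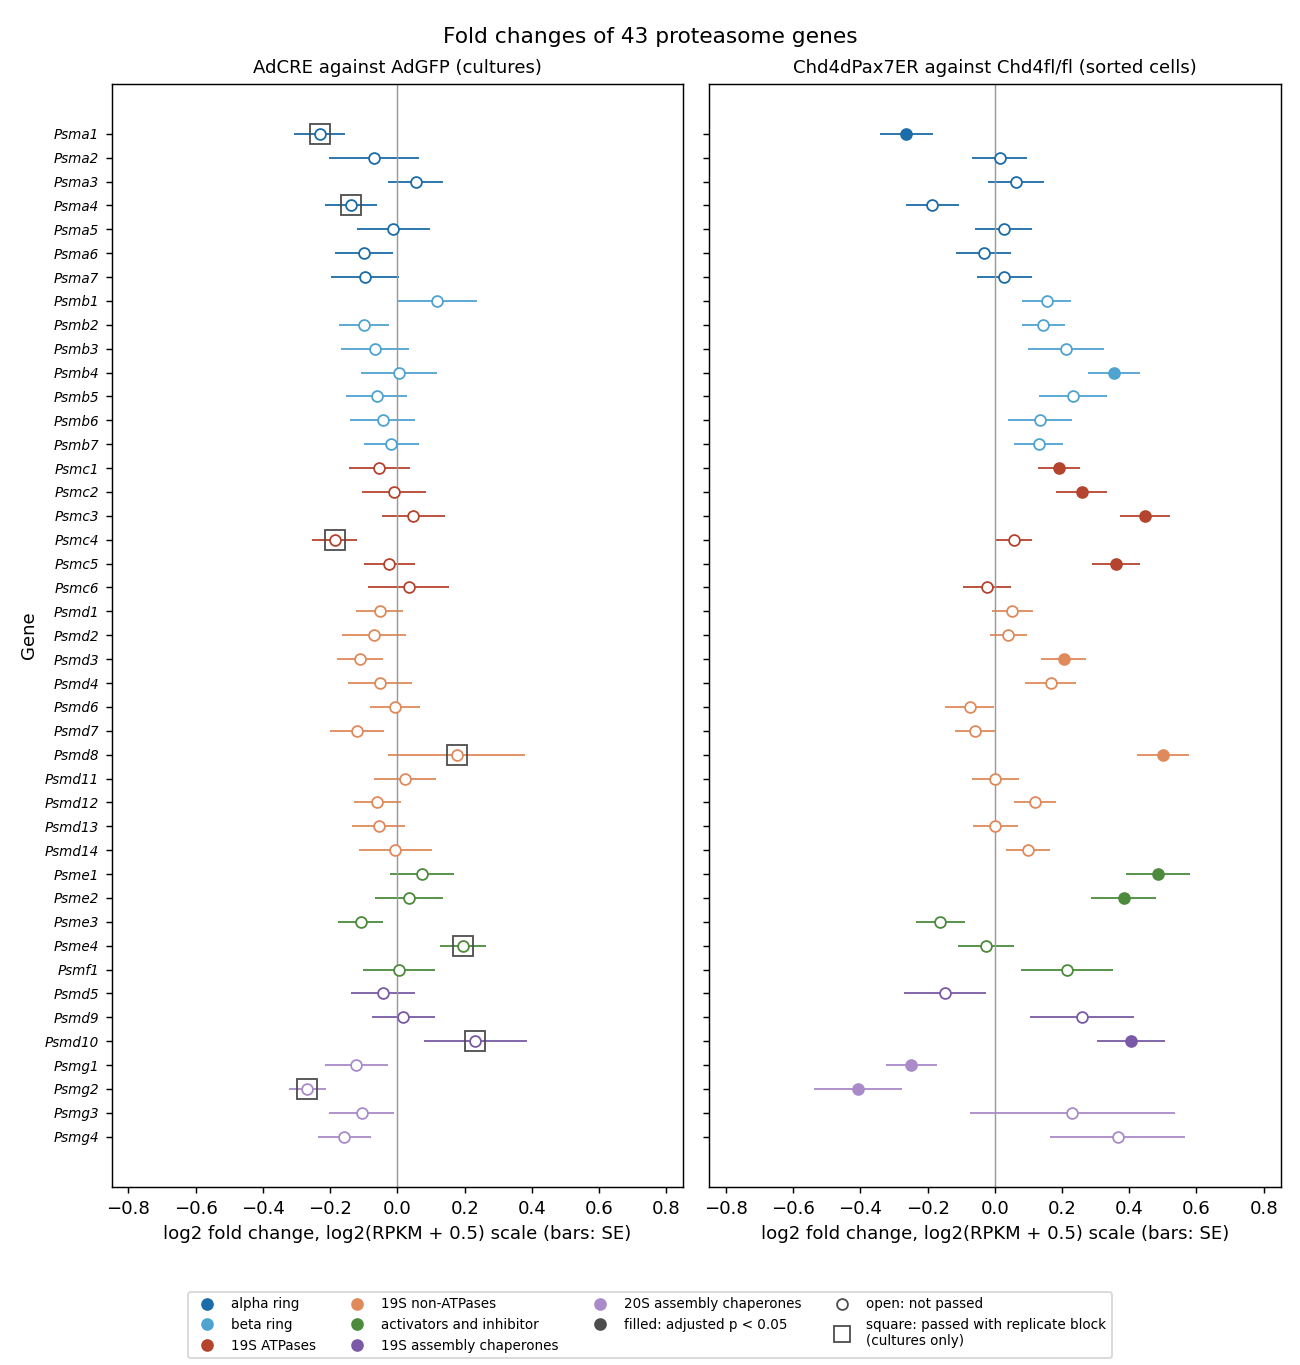
Log2 fold change (log2(RPKM + 0.5) scale, bars: SE of limma) of the 43 tested genes, case against control, for cultures (left) and sorted cells (right); filled points passed an adjusted p of 0.05 and squares mark genes that passed in culture with the replicate block. No point is filled on the left, and 10 filled points on the right lie above 0 and 3 below.

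The second comparison set sorted Chd4dPax7ER cells against Chd4fl/fl cells after injury. Here 10 proteasome genes rose and 3 fell, by at most 1.42-fold. The rises were mostly in the 19S particle (Psmc1, Psmc2, Psmc3, Psmc5, Psmd3 and Psmd8) and the PA28 activator (Psme1 and Psme2), with Psmb4 of the beta ring and the 19S chaperone Psmd10. Psma1 of the alpha ring and its chaperones Psmg1 and Psmg2 fell. With RPKM rescaled to a common sum, with or without mitochondrial transcripts, 7 members were higher and 4 lower. The 13 calls are 30.2% of the 43 members, near the 26.6% of all 13344 genes tested that passed in limma (14.7% higher, 11.9% lower; higher calls were 55.2% of all calls, and 46.2% after rescaling), so the share called does not set these genes apart. The median size of the log2 fold change was 0.16 for members and 0.28 for all genes tested, at median SE of 0.08 and 0.16. Similar shares called thus do not mean changes of similar size. All 4 case libraries lay above all 4 controls for 10 members and below them for 2, where 30.3% of all genes did not overlap (2136 genes above, 1913 below).

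Among the parts, the core had 1 higher and 1 lower of 14 tested genes, the 19S particle 6 higher and 0 lower of 17, the activators and inhibitor 2 higher of 5 and the chaperones 1 higher and 2 lower of 7. Within the 19S particle, 4 of 6 ATPases rose and 2 of 11 non-ATPases. Over all genes tested, 14.7% were higher and 11.9% lower. After rescaling to a common sum, 3 of the 17 19S genes were higher, and Psmc1, Psmc2 and Psmd3 missed the threshold. Without rescaling, the median log2 fold change was 0.12 over all members, beside -0.02 for all genes tested. It was 0.10 for the core, 0.10 for 19S genes, 0.21 for activators and the inhibitor, and 0.23 for chaperones. The value of 0.21 was that of the inhibitor gene Psmf1, while Psme1 to Psme4 stood at 0.49, 0.38, -0.16 and -0.03. The value of 0.23 was that of Psmg3, a low gene at 1.00 against 0.825 RPKM (SE 0.30). The rings of the core differed in their medians: 0.02 for alpha genes and 0.15 for beta genes, all 7 of which lay above 0. Rescaling to a common sum, leaving out mitochondrial transcripts and quantile scaling each lowered the median of all members to between 0.06 and 0.07, the core median to between 0.03 and 0.05 and that of 19S genes to between 0.05 and 0.06, and moved the median of all genes to -0.06. The core median was 0.05 without Chd4dPax7ER replicate 4, and 0.14 without replicate 3, where that of 19S genes was 0.15.

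Psmd8 (Rpn12, a lid subunit; ENSMUSG00000030591, chr7:29174187-29180673) rose most. It held 219, 272, 221 and 240.4 RPKM in Chd4dPax7ER replicates 1 to 4 and 161, 167, 171 and 170.1 in Chd4fl/fl. The controls were tightly grouped and every case library stood above them (1.42-fold, log2 0.50, SE 0.08, limma adjusted p = 0.00203). The rise in Psmc3, an ATPase of the base (ENSMUSG00000002102, chr2:91054016-91059438), was from 121, 131, 121 and 128 to 172, 183, 150.2 and 181 RPKM. Its groups were well apart (1.36-fold, log2 0.45, SE 0.07, adjusted p = 0.00278, limma). Psmc5, another ATPase of the base (ENSMUSG00000020708, chr11:106256185-106263112), held 172, 159, 157 and 175 against 135, 127, 116 and 138, again without overlap (1.28-fold, log2 0.36, SE 0.07, adjusted p = 0.00646). Psmd10, the chaperone gankyrin on the X chromosome (chrX:140948425-140956711), read 26.5, 29.2, 21.9 and 23.7 against 19.3, 19.7, 17.03 and 19.6, all cases higher (1.32-fold, log2 0.41, SE 0.10, adjusted p = 0.0167).

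The other ATPases split. Psmc1 (183 ± 11.8 against 160.1 ± 3.73 RPKM, log2 0.19, adjusted p = 0.0472) and Psmc2 (42.6 ± 3.52 against 35.5 ± 1.80, log2 0.26, adjusted p = 0.0343) passed in limma without overlap between groups. Psmc4 (log2 0.06, adjusted p = 0.477) and Psmc6 (log2 -0.02, 0.839) did not. Psmd3, a lid scaffold subunit, passed narrowly at 29.7 ± 0.914 against 25.8 ± 1.49 RPKM (log2 0.20, adjusted p = 0.0485). The deubiquitinase Psmd14 (log2 0.10, adjusted p = 0.293), the ubiquitin receptor Psmd4 (0.17, 0.138) and the scaffolds Psmd1 (0.05, 0.566) and Psmd2 (0.04, 0.631) did not pass. The calls of Psmc1, Psmc2 and Psmd3 depended on single libraries. Psmc1 passed without Chd4dPax7ER replicate 3 and missed the threshold without any 1 of the other 7 (adjusted p up to 0.107), Psmc2 missed it without replicate 2 or 4 of Chd4dPax7ER or any 1 Chd4fl/fl library (up to 0.0830), and Psmd3 missed it without any 1 of the 8 (up to 0.116). All 3 also missed the threshold when values were rescaled to a common sum.

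In the core, Psmb4, a non-catalytic beta subunit (ENSMUSG00000005779, chr3:94884324-94886958), was the gene that rose. It held 94.3, 103, 82.1 and 94.8 RPKM in Chd4dPax7ER replicates 1 to 4 and 76.9, 73.6, 68.8 and 72.2 in Chd4fl/fl, with no overlap (1.28-fold, log2 0.35, SE 0.08, limma adjusted p = 0.00963). The catalytic genes had higher case means but did not pass. Psmb5 read 40.2, 40.5, 30.1 and 36.1 against 32.3, 31.8, 28.5 and 31.5 (log2 0.23, SE 0.10, adjusted p = 0.116), overlapping through case replicate 3. Psmb6 read 73.2, 70.4, 55.4 and 68.6 against 62.6, 57.0, 58.0 and 65.0 (log2 0.13, SE 0.09, adjusted p = 0.322). Psmb7 read 211, 206, 189 and 233 against 202, 187, 186 and 188 (log2 0.13, SE 0.07, adjusted p = 0.216). Both of these overlapped as well.

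Psma1 (ENSMUSG00000030751, chr7:114264550-114276116) moved the other way. It held 73.3, 63.8, 60.8 and 72.2 RPKM in Chd4dPax7ER and 83.3, 86.2, 75.9 and 78.3 in Chd4fl/fl, every case library below every control (log2 fold change -0.26, SE 0.08, limma adjusted p = 0.0371). Of the other 6 tested alpha genes none passed, with log2 fold changes from -0.19 (Psma4, adjusted p = 0.116) to 0.06 (Psma3, 0.610). After rescaling to a common sum, 2 core genes were lower. Psma4 then also had every case library below every control. The Psma1 call was lost without replicate 2 or 3 of Chd4dPax7ER, and without replicate 1, 2 or 4 of Chd4fl/fl, each in turn (adjusted p up to 0.103).

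Case replicate 3 was low across the particle. It was the lowest Chd4dPax7ER library for 25 of the 31 core and 19S genes. Geometric means over core genes were 86.7, 83.1, 72.0 and 88.2 RPKM in Chd4dPax7ER replicates 1 to 4 and 80.7, 78.9, 75.3 and 77.9 in Chd4fl/fl, so the groups overlapped through that library. Over 19S genes they were 80.4, 80.2, 74.4 and 80.3 against 72.8, 72.6, 69.7 and 71.1, with every case library above the controls. Rescaled to a common sum, 19S genes no longer separated, since case replicate 3 (251 TPM, the RPKM scaled to 1 sum in all libraries) lay below control replicate 1 (254 TPM). The ratio of the 19S mean to the core mean was 0.927, 0.964, 1.03 and 0.910 in cases and 0.903, 0.919, 0.925 and 0.913 in controls, and overlapped. Without Chd4dPax7ER replicate 3, 12 members were higher and 1 lower, and Psmb5 was among those that passed (log2 fold change 0.32, limma adjusted p = 0.0201).

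**Figure D3:**
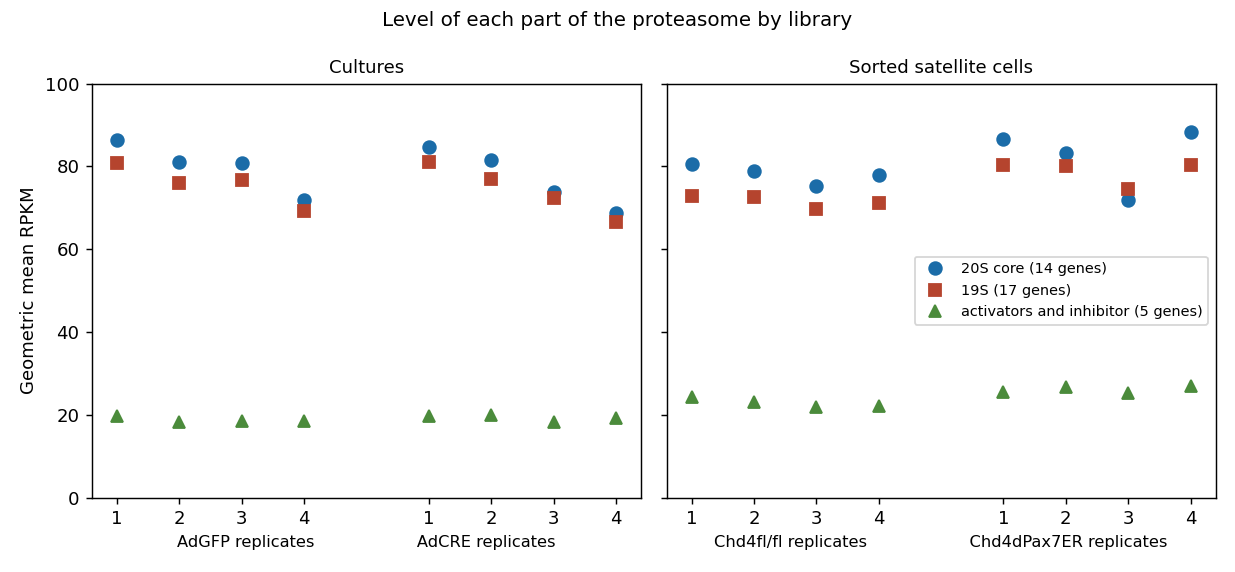
Geometric mean RPKM over the tested core (circles), 19S (squares) and activator and inhibitor genes (triangles) in each library, numbered by replicate. Core and 19S means are lowest in replicate 4 of both culture groups, and the core mean of Chd4dPax7ER replicate 3, at 72.0, lies below all Chd4fl/fl libraries.

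The PA28 alpha and beta genes, which lie 5913 bases apart on chromosome 14, rose together in sorted cells. Psme1 (ENSMUSG00000022216, chr14:55578494-55581527) held 29.1, 31.9, 29.4 and 29.8 RPKM in Chd4dPax7ER replicates 1 to 4 and 25.6, 20.3, 18.9 and 20.9 in Chd4fl/fl. All cases stood above all controls, of which replicate 1 was highest (1.40-fold, log2 0.49, SE 0.10, limma adjusted p = 0.00613). Psme2 (ENSMUSG00000079197, chr14:55587440-55591101) read 42.4, 43.2, 35.1 and 39.1 against 26.0, 31.0, 32.7 and 32.4, again apart (1.30-fold, log2 0.38, SE 0.10, adjusted p = 0.0183). Its value is less certain because Psme2b, a near-identical copy, was listed at 26.2 ± 3.11 against 20.7 ± 1.86 RPKM and also passed (log2 0.33, adjusted p = 0.0373). The geometric mean of Psme1 and Psme2 over that of the core was 0.405, 0.446, 0.447 and 0.387 in cases and 0.320, 0.318, 0.330 and 0.334 in controls, without overlap. Both genes were already called higher in these libraries, so this ratio restates those calls and is not separate support. In culture the same ratio was 0.154, 0.165, 0.151 and 0.196 after Cre and 0.15003, 0.144, 0.141 and 0.181 after GFP. The groups overlapped, while the AdCRE library was above its AdGFP partner in 4 of 4 pairs. This was also so for the ratio of the 19S mean to the core mean (0.943 to 0.979 after Cre, 0.935 to 0.964 after GFP). The means of alpha genes and of chaperones were above in 0 of 4 pairs. The core mean was above in 1 pair, the beta and 19S means in 2 each, and that of activators and the inhibitor in 3. These pair counts were not tested.

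The other activators did not pass in vivo. Psme3, PA28 gamma, held 64.8, 62.8, 65.9 and 66.9 RPKM in Chd4dPax7ER and 80.8, 76.3, 66.1 and 69.4 in Chd4fl/fl (log2 fold change -0.16, SE 0.07, limma adjusted p = 0.131), overlapping through control replicate 3 alone. Psme4, PA200, read 45.6, 59.7, 53.3 and 56.2 against 55.9, 55.0, 53.1 and 53.7, fully overlapping (-0.03, SE 0.08, 0.841). Psmf1, the inhibitor PI31, read 2.95, 2.61, 2.78 and 3.29 against 2.79, 2.46, 2.36 and 2.14 (0.21, SE 0.14, 0.277), the case mean higher but with overlap.

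Psmg1 and Psmg2, which form 1 chaperone of the alpha ring, fell while gankyrin rose. Psmg2 held 22.6, 22.5, 24.6 and 29.1 RPKM in Chd4dPax7ER and 37.6, 37.9, 29.8 and 27.1 in Chd4fl/fl (log2 fold change -0.41, SE 0.13, limma adjusted p = 0.0456). Its groups overlapped through replicate 4. Psmg1, its partner, held 20.6, 19.03, 21.7 and 18.3 against 24.9, 22.4, 23.9 and 23.7 without overlap (-0.25, SE 0.08, 0.0407). Psmg3 (1.00 against 0.825 RPKM) and Psmg4 (17.6 against 13.8), the second chaperone pair, did not pass, nor did the 19S chaperones Psmd5 (log2 -0.15) and Psmd9 (0.26). Psmg1 kept its call without Chd4dPax7ER replicate 3 and lost it without any 1 of the other 7 libraries (adjusted p up to 0.0987), and Psmg2 lost it without replicate 1, 2 or 3 of either group (up to 0.118). By contrast, Psmb4, Psmc3, Psmc5, Psmd8, Psmd10, Psme1 and Psme2 passed whichever 1 library was left out, with adjusted p at most 0.0459.

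**Figure D4:**
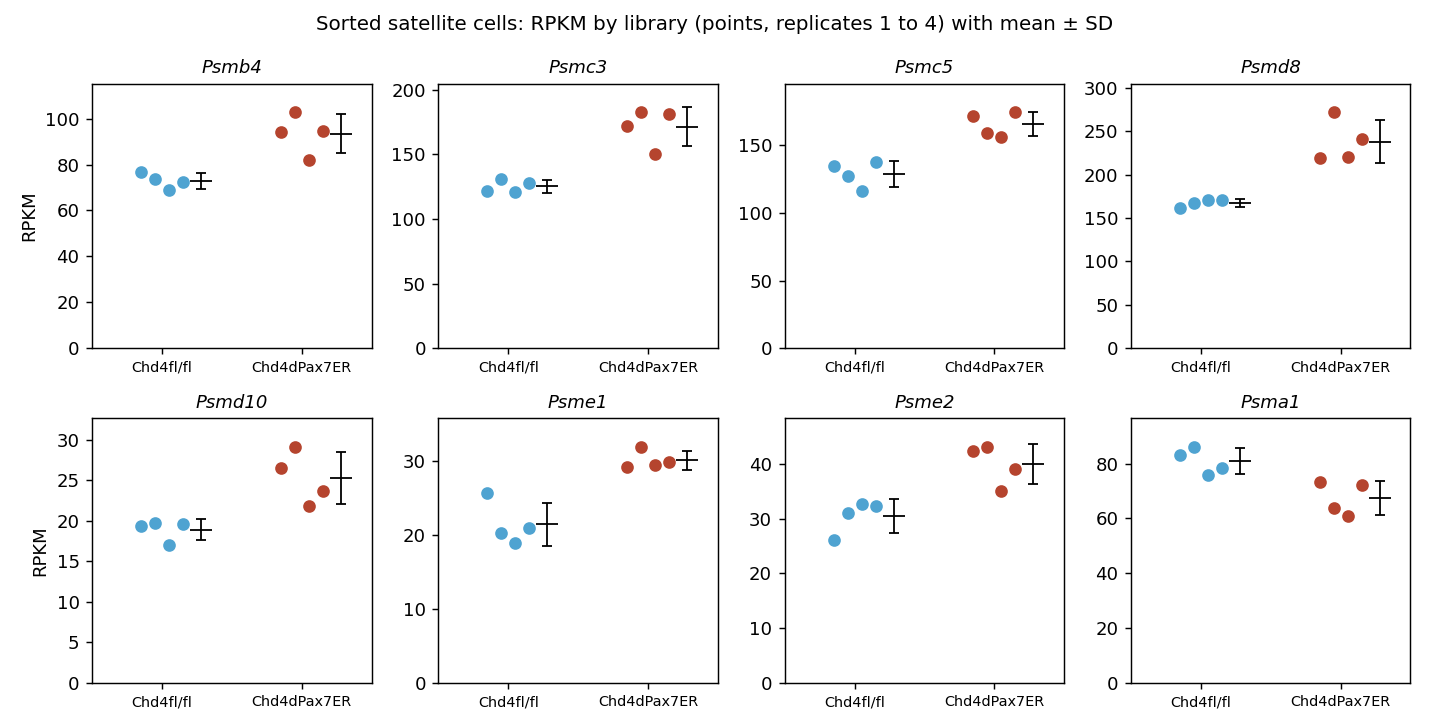
RPKM of 8 proteasome genes in the 4 Chd4fl/fl and 4 Chd4dPax7ER libraries (points) with mean and SD (bars); each axis starts at 0. The first 7 genes passed whichever library was left out and have every case library above the controls, and Psma1 has them below.

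Genes from marker lists for other cell types moved with genotype in vivo. All 8 genes of a mature fibre list (Ckm, Pvalb, Mb, Acta1, Mylpf, Tnnt3, Myh1, Myh4) were higher, with sums of 859 to 2446 RPKM in Chd4dPax7ER and 266 to 549 in Chd4fl/fl libraries. Of 3 fibro-adipogenic markers, Dcn was higher (109 against 10.9 RPKM), while Pdgfra and Ly6a did not pass. The list summed to 86.3 to 168 against 11.9 to 21.8, most of it Dcn. Of 6 leukocyte genes, 5 were tested and 0 passed, at sums of 65.6 to 146 against 55.9 to 104, with Ptprc at most at 0.59 RPKM. The 3 endothelial genes summed to at most 1.83 RPKM. In the satellite cell list, Pax7 fell and Myod1, Itga7 and Sdc4 rose among 8. The part of these lists in the proteasome values was not tested. In culture, Ly6a was the 1 gene tested of the 3 fibro-adipogenic genes, and it passed (higher). Adgre1 was at 0 in all libraries. The fibre list summed to 924 to 3874 RPKM in AdGFP and 1191 to 4761 in AdCRE libraries, so its genes were also expressed in the myoblast cultures. No fibre gene passed there without the block. With the block that gave the proteasome calls in culture, 7 of the 8 fibre genes were higher after Cre (all but Myh4), as were Cd68 and Ly6a, and Myf5, Cd34 and Vcam1 were lower. Over all genes, that fit called 17.5% higher and 18.7% lower. Cd68 was the 1 gene tested in culture of the 6 leukocyte genes.

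Whether the fold changes differed between sorted cells and cultures was tested directly for 11941 genes measured in both. The difference (in vivo minus in vitro log2 fold change) passed for 1 of 43 members, Psmc5, where 4.12% of all genes passed (2.43% higher and 1.69% lower in vivo). Psmc5 stood at -0.02 in culture and 0.36 in sorted cells, a difference of 0.38 (SE 0.10, limma adjusted p = 0.0468). It passed without AdGFP replicate 4, Chd4dPax7ER replicate 3 or Chd4fl/fl replicate 4, and missed the threshold without any 1 of the other 13 libraries (adjusted p up to 0.0943). Psmc3 (difference 0.40, adjusted p = 0.0713), Psmd3 (0.32, 0.0622), Psmc4 (0.24, 0.0959) and Psme1 (0.41, 0.108) did not pass. With the culture replicate number as a block, 7 members passed (Psmb4, Psmc3, Psmc4, Psmc5, Psmd3, Psmd8 and Psme1; adjusted p from 0.0144 to 0.0498), each with the higher fold change in vivo, where 10.8% of all genes passed. For Psma1 the fold changes were -0.23 in culture and -0.26 in sorted cells, and for Psmg2 -0.27 and -0.41, with differences of -0.03 (SE 0.11) and -0.14 (SE 0.15) that did not pass.

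Beside the subunits, 33 genes of the ubiquitin and proteasome system were followed, of which 32 were found. In sorted cells 6 rose and 1 fell of the 32, and without the immunoproteasome subunits 4 rose and 1 fell of 29, with a median log2 fold change of 0.03. These are 21.9% and 17.2% of the genes, below the 26.6% of all genes that passed. Zfand2a, an arsenite-inducible proteasome-associated gene, rose 2.24-fold (log2 1.16, SE 0.11, limma adjusted p = 0.000229). Ubb, a gene for ubiquitin itself, rose 1.52-fold (limma adjusted p = 0.00340). Nfe2l1, which encodes NRF1, held 79.5, 108, 78.6 and 87.5 RPKM in Chd4dPax7ER and 51.7, 58.7, 49.1 and 59.5 in Chd4fl/fl, without overlap (1.60-fold, log2 0.68, SE 0.11, adjusted p = 0.00277). Its processing enzymes Ddi2 (log2 0.13, adjusted p = 0.455) and Ngly1 (-0.28, 0.225) did not pass. Uchl5, a deubiquitinase of the 19S particle, fell (log2 fold change -0.39, SE 0.10, adjusted p = 0.0190).

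The catalytic subunits that replace Psmb5, Psmb6 and Psmb7 in the immunoproteasome were low in both settings. Psmb8, which takes the place of Psmb5, held 6.51, 6.03, 5.70 and 4.93 RPKM in Chd4dPax7ER and 2.42, 3.76, 2.19 and 3.00 in Chd4fl/fl, without overlap (1.90-fold, log2 0.93, limma adjusted p = 0.00411). Psmb10, which takes that of Psmb7, read 13.4, 9.37, 9.49 and 9.70 against 3.98, 6.10, 5.65 and 7.28, also apart (1.77-fold, log2 0.83, adjusted p = 0.0105). Psmb9, for Psmb6, stayed under 1 RPKM in all 8 libraries and did not pass (adjusted p = 0.550). In culture 0 of the 29 tested genes of the surrounding list passed. With the block 7 were higher and 2 lower there, among them Nfe2l1 (log2 0.26, adjusted p = 0.00327), Ddi2 (0.22, 0.0122) and Ngly1 (0.20, 0.0240), where 36.2% of all genes passed.

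Members were spread over 16 chromosomes, with 8 on chromosome 11 and 6 each on chromosomes 2 and 14. Their RefSeq models overlapped another gene in 12 of 45 cases, among them Psmd10 (2867 bases shared with Atg4a), Psme4 (18357 bases with Erlec1) and Psma4 (174 bases with AY074887). The labels do not state whether counting used strand, so reads from such pairs could not be told apart.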

How the data were processed

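RNA was measured in 16 libraries, and 8 ATAC-seq samples were not analysed here. The authors deposited 1 table of RPKM values per setting (46078 genes). Per the submitters' processing notes, the builds were mm10 and GRCm38 and the tools listed, without their roles, include HISAT2 2.1.0 and cutadapt 1.18. What made the RPKM values, how reads were counted and over which lengths is not stated there.

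Genes reaching 0.5 RPKM in 4 or more of a table's 8 libraries were taken as log2(RPKM + 0.5), which understates changes of low genes, and fitted with limma 3.58.1 (trended variances, R 4.3.3), adjusting p over all genes tested. Fold changes and SE are on that scale, and SD is over 4 libraries. Differences between settings were an interaction contrast over all 16 libraries. Deviations from group means correlated between same-numbered libraries at 0.711 to 0.856 in vitro, so the number pairs those samples, and a fit with the number as a block is given beside the culture results. The script was tested on simulated data. Alternatives covered the pseudocount, filter, scaling, variance trend, block and each left-out library.

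The members and lists were chosen with earlier results of these data known. Values by library are given for catalytic subunits, activators, the strongest called member of each class and genes called with the block. Markers and the list of surrounding genes came from general knowledge. Paaf1 of that list was not matched, and 1 of its genes is counted but not reported here. Promoters came from RefSeq (GRCm38.p6).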

Additional observations from a re-analysis of the deposited data

Results flagged for a closer look

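In 12 of the 172 groups of 4 libraries checked (43 genes in 4 groups), 1 library stood far from the other 3, at a level that chance passes in about 1 of 20 groups. In AdGFP, replicate 4 was low for Psmb7 (115 RPKM, the others 129 to 132), Psmc1 (115, the others 133 to 134) and Psmd7 (142, the others 154 to 156), and replicate 1 was high for Psmd9 (5.50, the others 4.53 to 4.70). In AdCRE, replicate 4 was high for Psmd3 (36.5, the others 35.0 to 35.1). In Chd4dPax7ER, replicate 3 was low for Psma2 (145, the others 178 to 183), Psmd4 (50.2, the others 55.4 to 56.4) and Psmd14 (45.9, the others 52.5 to 53.1). In Chd4fl/fl, replicate 3 was low for Psma6 (137, the others 149 to 151) and Psmd10 (17.03, the others 19.3 to 19.7), and replicate 1 was high for Psmb7 (202, the others 186 to 189) and Psmd12 (65.7, the others 59.8 to 60.7).

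The fold change of Psmc5 differed between settings, by 0.38 on the log2 scale (in vivo minus in vitro, limma interaction contrast, adjusted p = 0.0468), with the higher value in sorted cells.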

How the results depend on the processing

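No result changed direction past the threshold. In culture, 0 members passed in each direction under every setting without the block; with the replicate block, 3 were higher and 4 lower, and leaving a pair out of that fit gave 1 to 2 higher and 3 lower. In sorted cells, where same-numbered libraries correlated at -0.0967 to 0.0499 and 0 of 8 libraries matched best with their own number (in vitro 8 of 8), the replicate block gave 6 higher and 0 lower (1694 and 1184 of all genes) and ended the Psme2 call (adjusted p = 0.0507). Without the low-value filter or without the variance trend, 0 members were lower in vivo; leaving out 1 library gave 7 to 12 higher and 0 to 2 lower. For the difference between settings, 2 members passed with quantile scaling, 0 without the trend, 7 with the block, and 0 to 2 when 1 library was left out; the cause was not tested. Over all genes, the culture counts of 70 higher and 19 lower became 2371 and 2536 with the block, 14 to 40 and 2 to 4 with a library left out, and 12 lower without the filter. The in vivo counts were 1960 and 1588, the latter 1034 without Chd4fl/fl replicate 2; they became 1720 and 2001 when rescaled to a common sum, so that higher calls went from 55.2% to 46.2% of calls (47.3% with quantile scaling). Depth per library is unknown, RPKM carries no counting error, and changes smaller than those called may be undetected with 4 libraries a group.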
